A study of Mus musculus with 12 samples.

Results

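The 33 genes described here mark cholangiocytes, the epithelial cells that line the bile ducts, or act in the ductular reaction, the growth of small ducts in injured liver. They comprise keratins, surface glycoproteins, junction and polarity genes, genes of bile secretion, genes of cystic duct disease, a membrane protease with its inhibitors, and secreted or immune signals. Members were found by their gene name on the array, with Tacstd1 taken as the older name of Epcam. All 33 of 33 were present, by 50 probes, among 28786 gene names. A probe entered the test if its signal cleared background well on 5 or more of the 6 arrays of a diet, in the knockout or the wild-type channel, which kept 29 members and 15375 genes in all. Muc1, Sctr, Vtcn1 and Dmbt1 were not tested.

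The samples were livers of Abcb4(-/-) mice fed cholic acid (CA) for 9 weeks, livers of Abcb4(-/-) mice fed ursodeoxycholic acid (UDCA) for 9 weeks, and livers of Abcb4(+/+) wild-type mice. Abcb4 moves phospholipid into bile, and mice that lack it develop a sclerosing bile duct disease. Both agents are bile acids. UDCA lacks one of the hydroxyl groups of CA and holds another in the opposite orientation. Per the series' design text, CA was meant to raise and UDCA to lower disease activity, which is the question that the comparison of the diets addresses. Each diet group held 5 knockout livers, not pooled, on 6 two-colour arrays, every array carrying knockout and wild-type RNA together. On arrays 1 to 3 of a diet the knockout was in Cy5 and on arrays 4 to 6 in Cy3, and one hybridization per diet repeated a liver with the dyes exchanged. The sources used here do not give the doses, the diet and number of the wild-type mice, or the sex, strain and age of any mouse. No knockout liver without a bile acid in the diet was analysed here, so loss of Abcb4 and the added bile acid cannot be told apart in a ratio to wild type.

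In a healthy liver cholangiocytes are a small minority beside hepatocytes. They carry keratins that hepatocytes lack, seal the duct with claudins and cadherins, and adjust bile by secreting chloride, bicarbonate and water under the hormone secretin. In cholestatic injury ducts multiply, and the epithelium releases signals that draw and hold macrophages, lymphocytes and matrix-forming cells. Keratin, Epcam and osteopontin staining are common ways of marking this growth.

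Most of these biliary genes had more RNA in knockout liver than in wild-type liver, and more so with CA than with UDCA. With CA, 26 of the 29 tested members rose and 0 fell, at a limma adjusted p under 0.05, where 37.8% of all tested genes were called higher and 22.4% lower. The chemokine gene Cx3cl1 rose 17.6-fold. With UDCA, 19 rose and 1 fell, where 17.2% of all tested genes were called higher and 8.79% lower. In the difference CA minus UDCA, 18 members were higher and 0 lower, where 18.8% of all tested genes were called higher and 8.87% lower. At an unadjusted p under 0.05 the number of lower members was also 0 with CA and 0 in the difference. Some members departed from this order in their ratios. Krt23 rose 9.75-fold with CA, its knockout spot being saturated on 3 CA arrays, and 9.81-fold with UDCA. Celsr1 rose with CA and fell with UDCA, and the water channel gene Aqp1 was called in neither diet.

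Signed values are log2 ratios, knockout over wild type within an array, and a value with ± is limma's estimate and its standard error (6 arrays from 5 livers per diet). P-values were adjusted by the Benjamini-Hochberg method across the 21693 tested probes. The median ratio of the 29 members was 2.27 for CA, 1.19 for UDCA and 0.82 for the difference, beside 0.10, 0.04 and 0.08 for all tested genes. Of the 29, 7 passed the filter only through the knockout channel (Cftr, Cldn4, Cldn6, Mal, Prom1, Spint1 and Tspan8) and so had to differ, which means that no count or median over the tested members supports a rise on its own. The 18 members well above background on at least 5 arrays in both channels of both diets split into 15 higher and 0 lower for CA, 12 and 1 for UDCA, and 10 and 0 for the difference. The share of all genes under that stricter filter was not counted, so these counts have no background beside them. In whole liver, more cells of a type and more RNA per cell cannot be told apart.

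**Figure D1:**
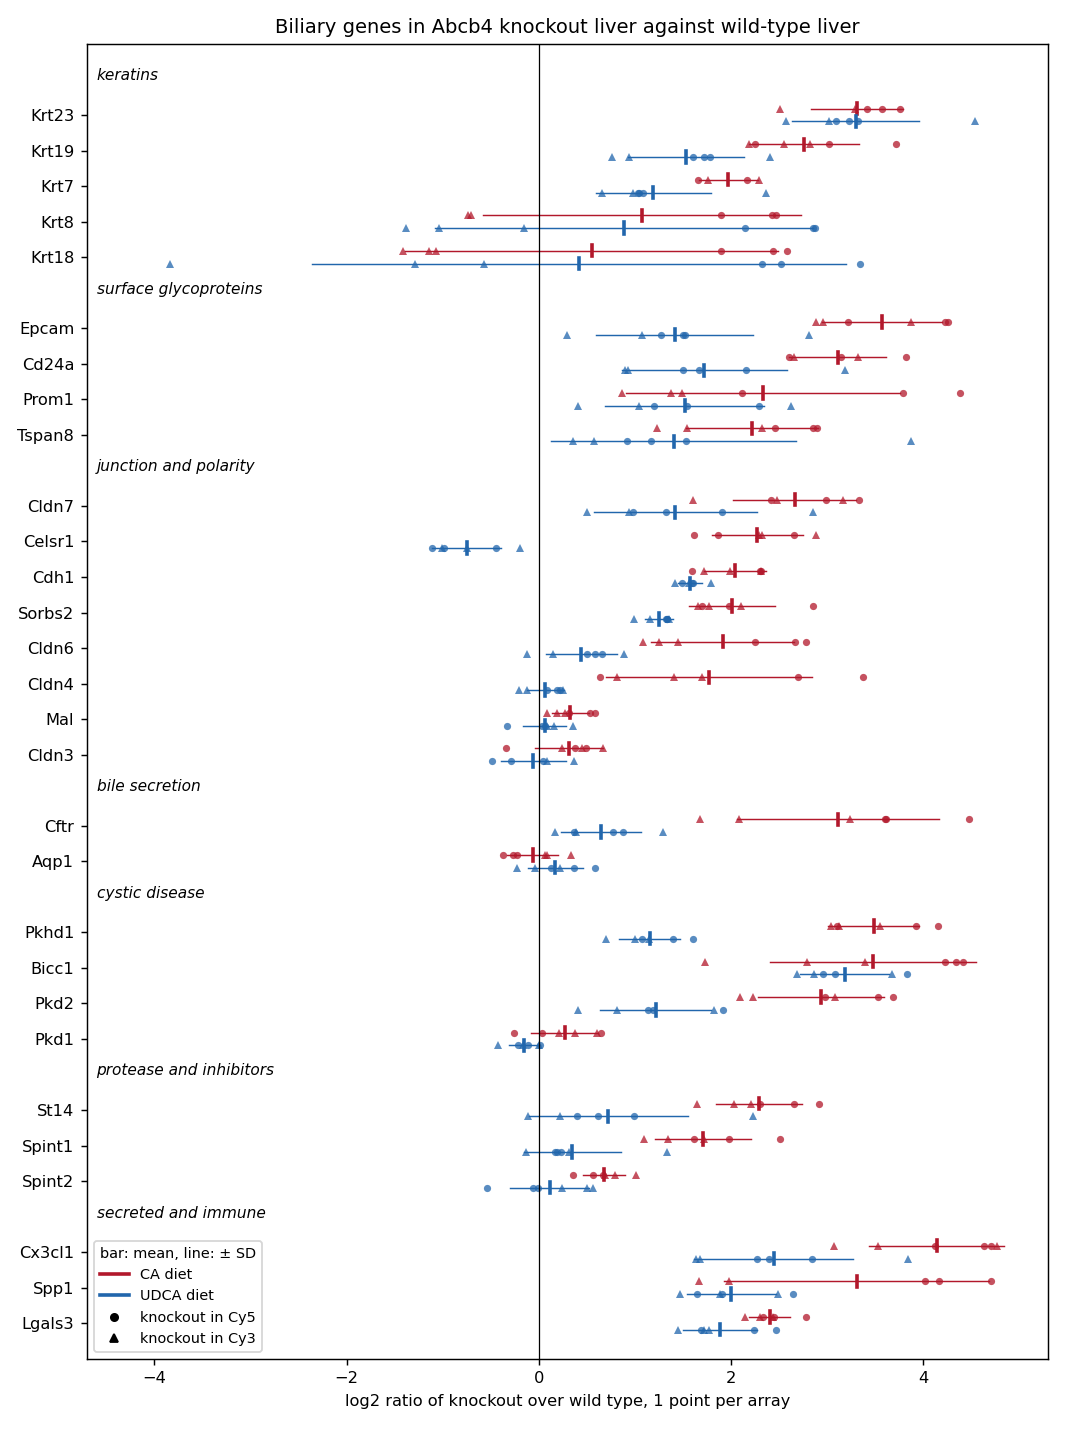
Log2 ratio of knockout over wild type for the 29 tested genes, grouped by role, with 1 point per array, the CA diet above the UDCA diet in each row, and circles or triangles for knockout RNA in Cy5 or Cy3. Short bars are means and lines are ± SD over 4 to 6 arrays. All 6 UDCA values of Celsr1 lie below 0 and all 6 of its CA values above 1.6, whereas the 2 diets of Krt23 share a range, and Krt8 and Krt18 split by dye.

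The arrays varied in ways that touch these genes. Median green intensity per array lay between 250.2 and 1296 and median red intensity between 59.2 and 158.2. Precision is limited by how many arrays there are. Arrays of the same diet and the same dye orientation correlated at 0.49 to 0.88 over all tested probes, and those of the same diet but opposite orientation at 0.02 to 0.76. The median ratio of the biliary genes on UDCA array 6, the single array on its slide, was 1.78, and on the other UDCA arrays it lay between 0.36 and 1.53. Without that array, 17 members rose with UDCA and 21 were higher in the difference. CA arrays 3 and 4, which shared a slide, had median ratios of -3.65 and -3.26 for pancreatic acinar genes, between -0.73 and -0.13 on the other CA arrays. Without these arrays 27 members rose with CA and 18 with UDCA, and 18 were higher in the difference. The share of all genes was not counted for fits that left arrays out. Abcb4 itself had ratios of -0.73 ± 0.21 with CA and -1.28 ± 0.21 with UDCA by its brighter probe, positive on CA array 1 (0.11) and UDCA array 2 (0.34), and of -2.73 and -1.77 by its other probe, negative on all 12 arrays. The sources used here do not say which exons were deleted or where the probes lie in them, so Abcb4 checks the labels in part.

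Promoter sequence is shown for 4 members whose patterns span the result. Epcam, Cftr and Cldn4 had ratios that did not overlap between the diets, and Krt23 had nearly equal estimates in both. RefSeq windows (GRCm38.p6) of the 250 bases before the transcription start were matched for 25 of 33 members and 27025 genes, the first listed start being used where a gene has several. Capitals mark every match, on either strand, to the GC box GGGCGG, the TATA box TATAAA, the TEAD motif GGAATG, the AP-1 motif TGANTCA, the HNF1 motif GTTAAT, the SOX motif AACAAT or the RBPJ motif TGGGAA, and matches may share bases.
Epcam, chr17:87635729-87635978, plus strand: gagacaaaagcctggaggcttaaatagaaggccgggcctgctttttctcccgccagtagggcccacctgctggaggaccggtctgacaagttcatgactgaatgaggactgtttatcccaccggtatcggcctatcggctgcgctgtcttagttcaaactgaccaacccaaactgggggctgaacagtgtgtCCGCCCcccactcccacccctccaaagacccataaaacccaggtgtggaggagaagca
Cftr, chr6:18170437-18170686, plus strand: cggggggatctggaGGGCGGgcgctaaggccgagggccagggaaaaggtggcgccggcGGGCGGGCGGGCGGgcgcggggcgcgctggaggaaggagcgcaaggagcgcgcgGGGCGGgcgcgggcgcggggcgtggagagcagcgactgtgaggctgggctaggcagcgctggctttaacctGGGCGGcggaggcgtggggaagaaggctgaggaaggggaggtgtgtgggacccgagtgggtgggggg
Cldn4, chr5:134946935-134947184, minus strand: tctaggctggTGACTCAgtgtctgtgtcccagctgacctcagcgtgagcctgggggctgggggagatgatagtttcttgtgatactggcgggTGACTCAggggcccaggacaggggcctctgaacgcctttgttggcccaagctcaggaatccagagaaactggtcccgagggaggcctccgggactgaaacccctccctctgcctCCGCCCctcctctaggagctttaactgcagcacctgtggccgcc
Krt23, chr11:99493121-99493370, minus strand: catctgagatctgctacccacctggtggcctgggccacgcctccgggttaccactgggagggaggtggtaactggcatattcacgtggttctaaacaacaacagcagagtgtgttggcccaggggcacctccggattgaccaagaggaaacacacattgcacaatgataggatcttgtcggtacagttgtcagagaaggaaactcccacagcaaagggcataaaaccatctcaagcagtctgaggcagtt
The Cftr window held 6 GC box matches, between 236 and 67 bases before the start, that of Epcam 1 at 58 bases and that of Cldn4 1 at 44 bases. Cldn4 also held 2 AP-1 motifs, at 240 and 158 bases before the start, and the Krt23 window held none of the 7 motifs. The GC box was in 14 of 25 member windows (56%) and in 32.9% of all windows, the AP-1 motif in 2 (8%) and 6.87%, and the HNF1 motif in 3 (12%) and 6.52%. For the RBPJ motif the shares were 7 of 25 (28%) and 21.5%, for the TEAD motif 4 of 25 (16%) and 12.6%, for the TATA box 3 of 25 (12%) and 13%, and for the SOX motif 0 of 25 and 9.65%. These are letter matches and describe the windows only.

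Among the keratins, Krt7, Krt19 and Krt23 rose with both diets. Krt19, the classical keratin of bile ducts, rose 6.76-fold with CA (2.76 ± 0.20, adjusted p = 2.09e-08) and 2.90-fold with UDCA (1.53 ± 0.20, adjusted p = 4.08e-05). CA arrays 1 to 6 gave Krt19 ratios of 3.72, 3.02, 2.25, 2.55, 2.82 and 2.19, and UDCA arrays 1 to 6 gave 1.60, 1.78, 1.71, 0.94, 0.76 and 2.41 (probe on mm7 chromosome 11, 100250117 to 100250176). All 12 were above 0, and the diets overlapped through UDCA array 6. The difference was 1.22 ± 0.28 (limma adjusted p = 0.00501). With median centring it was 1.14 and not called (adjusted p = 0.126).

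Krt23, an acidic keratin, rose strongly in CA-fed and in UDCA-fed liver. Its ratios were 3.41, 3.76, 3.57, 3.29 and 2.51 on CA arrays 1, 2, 3, 5 and 6, array 4 being missing through an outlier flag, and 3.09, 3.23, 3.32, 3.02, 2.57 and 4.53 on UDCA arrays 1 to 6 (probe on mm7 chromosome 11, 99587118 to 99587177). Every value was above 2.5 and the ranges overlapped. The rises were 9.75-fold with CA (adjusted p = 2.82e-08) and 9.81-fold with UDCA (adjusted p = 9.45e-08), and the limma difference was -0.01, with a 95% interval of -0.66 to 0.65. Its knockout spot was saturated on 3 CA arrays. Krt7, the other keratin restricted to ducts, had lowest, median and highest ratios of 1.66, 1.96 and 2.29 over 4 CA arrays, arrays 3 and 4 being flagged, and of 0.65, 1.04 and 2.36 over the UDCA arrays. Estimates were 1.97 ± 0.22 with CA and 1.19 ± 0.18 with UDCA, and the difference of 0.78 ± 0.28 was not called (limma adjusted p = 0.0572). Without UDCA array 6 it was 1.02 and called (adjusted p = 0.00110). A second, dimmer Krt7 probe gave 2.40 with CA, 0.55 with UDCA and a called difference of 1.85 (limma adjusted p = 0.000217), so the probes differed in the call.

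Krt8 and Krt18 form the keratin pair that hepatocytes share with ducts, and their ratios followed the dye. Krt18 was between 1.90 and 2.58 on the CA arrays with knockout RNA in Cy5 and between -1.41 and -1.07 on those with it in Cy3, and the UDCA ranges were 2.32 to 3.34 in Cy5 and -3.84 to -0.57 in Cy3. The dye term was called for both genes (2.03 for Krt18 and 1.63 for Krt8), and their knockout spots were saturated on 5 CA and 3 UDCA arrays. Krt18 was not called in either diet (0.55 ± 0.30 with CA and 0.41 ± 0.30 with UDCA), but without UDCA array 5 it was called in both (0.55 with CA, adjusted p = 0.00451, and 0.91 with UDCA, adjusted p = 0.000902). Krt8 was called higher, at 0.75 ± 0.17 with CA and 0.88 ± 0.16 with UDCA, but without the dye term it was called in neither (adjusted p = 0.202 with CA and 0.381 with UDCA). Hepatocyte markers split the same way, with a median ratio of 1.08 to 1.88 on the CA arrays with knockout in Cy5 and of -1.98 to -1.50 on those with it in Cy3. Among keratins not in the set, 4 of 7 tested rose with CA and 0 fell, 1 rose with UDCA, and Krt13 (1.10 with CA, 1.16 with UDCA), Krt20 (0.68 with CA) and Krt80 (0.68 with CA, difference 0.69) were the largest called changes.

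All 4 tested surface glycoprotein genes rose with both diets. Epcam encodes the adhesion molecule of duct cells and progenitors that mature hepatocytes lack. Epcam stood at 4.25, 4.22, 3.22, 2.88, 3.87 and 2.96 on CA arrays 1 to 6, while UDCA arrays 1 to 6 gave 1.52, 1.50, 1.27, 1.07, 0.29 and 2.81 (probe on mm7 chromosome 17, 85952074 to 85952902). The lowest CA value was just above the highest UDCA value, so the diets did not overlap. Epcam rose 11.9-fold with CA (3.57 ± 0.25, adjusted p = 1.53e-08) and 2.66-fold with UDCA (1.41 ± 0.25, adjusted p = 0.000629), and differed by 2.16 ± 0.35 (limma adjusted p = 0.000534).

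Cd24a, which encodes a small sialoglycoprotein anchored to the membrane by lipid, gave 3.14, 3.82, 2.60, 3.32 and 2.66 on CA arrays 1, 2, 3, 5 and 6 and 1.66, 1.50, 2.16, 0.93, 0.90 and 3.18 on the UDCA arrays. Only UDCA array 6 reached into the CA range. The estimates were 3.09 ± 0.27 with CA and 1.72 ± 0.25 with UDCA, and the difference was 1.37 ± 0.37 (limma adjusted p = 0.0146). With the flagged spot of CA array 4 kept, that difference was 0.84 and was not called (adjusted p = 0.266). Nor was it called with Feature Extraction's processed signals (0.62, adjusted p = 0.211) or with median centring (1.17, 0.145).

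Prom1 encodes the prominin of membrane protrusions and Tspan8 a tetraspanin. Lowest, median and highest ratios of Prom1 were 0.86, 1.80 and 4.38 with CA and 0.40, 1.37 and 2.62 with UDCA. Those of Tspan8 were 1.23, 2.39 and 2.90 with CA and 0.36, 1.04 and 3.87 with UDCA. Both were higher on all 12 arrays with wide, overlapping ranges. The Prom1 difference was 0.82, with a 95% interval of -0.16 to 1.79, and that of Tspan8 0.82, with an interval of -0.23 to 1.86, neither called by limma. Without UDCA array 6 both were called, at 1.20 (adjusted p = 0.0201) for Prom1 and 1.40 (adjusted p = 0.000110) for Tspan8. Wild-type Prom1 was well above background on 1 of 6 CA arrays, so the size of its CA ratio is uncertain, and on 0 of 6 UDCA arrays. With UDCA the mean levels gave a bound of 2.86-fold, equal to the fitted ratio of 1.52 (95% interval 0.83 to 2.21, limma adjusted p = 0.00286). Bounds here are set from mean normalized levels in the separate channels and do not allow for the spread between arrays. A second, dimmer Prom1 probe gave 0.97 with UDCA (limma adjusted p = 0.0125), with a bound of 1.89-fold. The mucin gene Muc1 was near background, its knockout spot being well above it on 3 of 6 CA arrays and on 0 of 6 UDCA arrays by its brighter probe.

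Junction and polarity genes rose in 8 of 8 cases with CA, and with UDCA 4 rose and 1 fell. The gene that fell was Celsr1, a large cadherin of planar cell polarity that orients cells within an epithelial sheet. Its 6 CA arrays gave 1.86, 1.61, 2.66, 2.32, 2.28 and 2.88, its 6 UDCA arrays -0.98, -1.11, -0.45, -0.20, -1.01 and -0.74 (probe on mm7 chromosome 15, 85981316 to 85981375). The 6 CA values were all above wild type, the 6 UDCA values all below it. Celsr1 rose 4.82-fold with CA (2.27 ± 0.15, adjusted p = 9.02e-09) and fell by 0.75 on the log2 scale with UDCA (adjusted p = 0.00169). The difference of 3.02 ± 0.21 had the smallest limma adjusted p of the members, 4.10e-06. Its mean level in normalized log2 intensity was 12.90 ± 0.71 in CA-fed knockout liver and 10.63 ± 0.61 in wild type on those arrays, and 10.39 ± 0.26 in UDCA-fed knockout liver and 11.14 ± 0.35 in wild type on theirs (SD, n = 6 arrays each). With arrays centred on their median in place of loess, the UDCA value was -0.35 and not called (adjusted p = 0.610), while the median of all genes then stood at 0.32.

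Claudins, the strand proteins of tight junctions, did not move alike. Cldn7 gave 2.99, 3.33, 2.41, 1.60, 3.16 and 2.47 on CA arrays 1 to 6 and 0.98, 1.33, 1.91, 0.94, 0.51 and 2.86 on the UDCA arrays. All 12 were above 0 and the diets overlapped. The estimates were 2.66 ± 0.26 with CA (6.33-fold) and 1.42 ± 0.26 with UDCA (2.67-fold), with a difference of 1.24 ± 0.36 (limma adjusted p = 0.0207). That difference was not called without CA array 5, UDCA array 1 or UDCA array 5 (adjusted p of 0.0528 to 0.0559). Nor was it called with Feature Extraction's processed signals (0.54, adjusted p = 0.344) or with median centring (1.11, 0.139). Cldn4 had lowest, median and highest ratios of 0.63, 1.55 and 3.37 with CA and -0.21, 0.14 and 0.25 with UDCA, so the diets did not overlap. It rose with CA (1.77 ± 0.25, limma adjusted p = 2.11e-05), where wild type was well above background on 1 of 6 arrays. With UDCA it read 0.07 ± 0.25, and neither channel was well above background on any array. Both ratios and the difference of 1.70 are thus fitted values and not measured sizes. Cldn6 ranged from 1.08 to 2.78 with CA (1.91 ± 0.15) and from -0.13 to 0.89 with UDCA. Its wild-type spot was well above background on 4 CA arrays and 1 UDCA array, so the size of these ratios is uncertain. The UDCA call of Cldn6 at 0.44 ± 0.15 (limma adjusted p = 0.0489) was lost on leaving out any 1 of CA arrays 3 to 5 or UDCA arrays 2 to 6 (adjusted p of 0.0548 to 0.198). Cldn3, the immediate neighbour of Cldn4 on chromosome 5 in the RefSeq annotation, read 0.31 ± 0.12 with CA (limma adjusted p = 0.0384) and -0.02 ± 0.13 with UDCA, with 5 of 6 CA arrays above 0. Its spots were saturated in knockout on 3 CA and 2 UDCA arrays and in wild type on 2 CA arrays. The Cldn3 call was lost without the dye term (adjusted p = 0.0691) and without CA array 1, 2, 5 or 6 (0.0649 to 0.143).

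Cdh1 and Sorbs2 rose in both diets. Cdh1, the adherens junction gene for E-cadherin, had lowest, median and highest ratios of 1.59, 2.14 and 2.31 with CA and 1.41, 1.58 and 1.79 with UDCA. Values on the UDCA arrays lay close together, and the diets overlapped at the low end of CA. It rose 4.11-fold with CA (2.04 ± 0.11, adjusted p = 1.91e-09) and 2.98-fold with UDCA (1.58 ± 0.11, adjusted p = 1.53e-07), and its limma difference of 0.46 ± 0.16 was close to the threshold (adjusted p = 0.0428). Leaving out any 1 of CA arrays 1, 3, 5 and 6 or of UDCA arrays 1 to 5 ended that call (0.0579 to 0.103). Other settings ended it too, among them Feature Extraction's processed signals (adjusted p = 0.243), median centring (0.855) and the slide as a block (0.120). Sorbs2, an adaptor of the actin cytoskeleton, ranged from 1.66 to 2.85 with CA and from 0.99 to 1.36 with UDCA, with no overlap. It differed by 0.76 ± 0.18 (limma adjusted p = 0.00644), a call lost with median centring (0.58, adjusted p = 0.635) and with the slide as a block (0.77, 0.0540). Mal, a proteolipid of apical membrane sorting, gave 0.33 ± 0.10 with CA (limma adjusted p = 0.0131, 0.0545 without CA array 2) and 0.06 ± 0.10 with UDCA. Its wild-type spot was well above background on 3 CA arrays and 1 UDCA array, and its knockout spot on 2 UDCA arrays, so these sizes are uncertain. The CA call was also lost with Feature Extraction's processed signals (0.0508), median centring (0.193), the slide as a block (0.322) and the authors' table (0.0768).

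Tight junction genes outside the set went both ways. With CA 9 of 15 rose and 2 fell, with UDCA 5 rose and 1 fell, and in the difference 3 were higher and 3 lower. Marveld3, a tetraspan junction protein, rose by 2.07 with CA and 0.54 with UDCA, and Marveld2 rose by 1.25 with CA. Cldn1 was at -0.07 with CA and 0.80 with UDCA, a called difference of -0.87, opposite in sign to those of the biliary claudins Cldn4, Cldn6 and Cldn7. Of 15 other epithelial adhesion and transcription genes, 13 rose with CA and 0 fell, against 3 and 0 with UDCA and 5 and 0 in the difference, with list medians of 0.74, 0.20 and 0.47. The epithelial transcription factor gene Grhl2 rose with CA (2.73) and read 0.27 with UDCA, a called difference of 2.46, and the desmosomal cadherin gene Dsg2 was at 1.94 with CA and 0.54 with UDCA, the UDCA value not being called. Ehf, another epithelial factor, rose by 1.69 with CA.

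**Figure D2:**
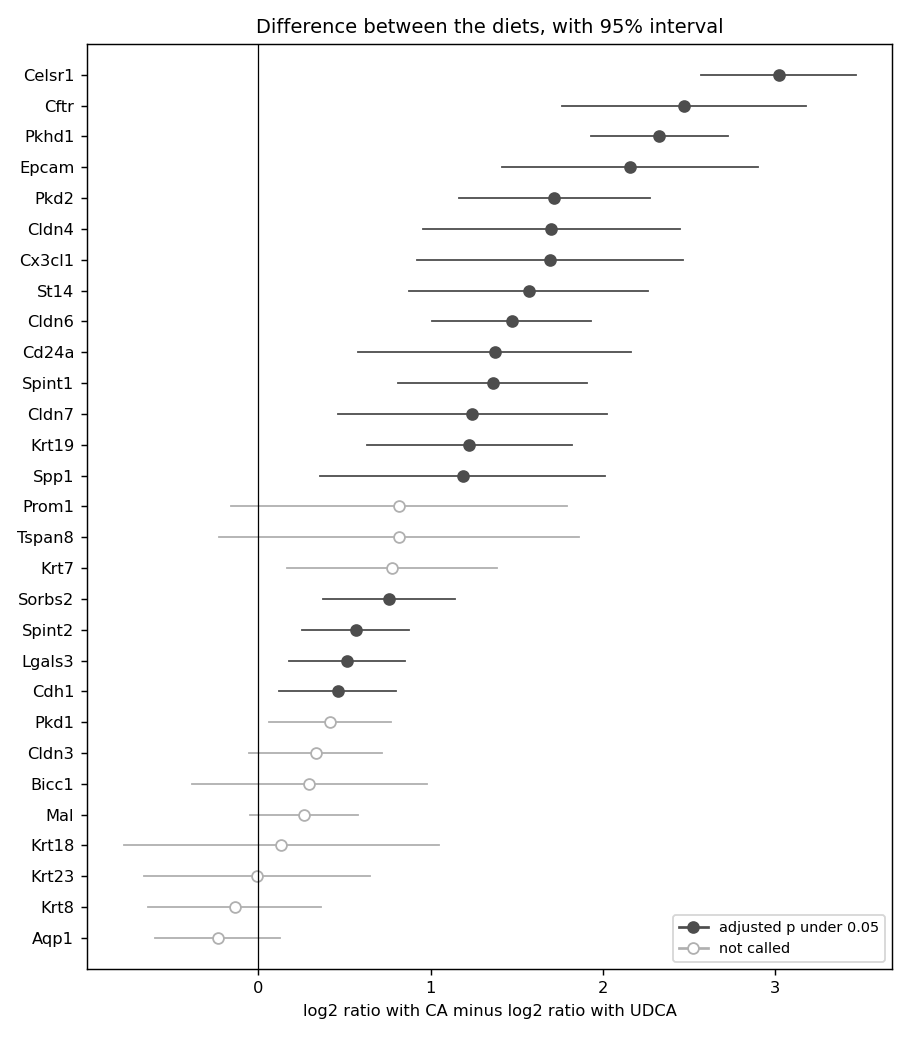
Log2 ratio with CA minus log2 ratio with UDCA for the 29 tested genes, in descending order, with the 95% interval of the limma fit and filled points for an adjusted p under 0.05. Celsr1 stands highest at 3.02, and Krt23, Krt8 and Aqp1 sit at or below 0 with intervals that span it.

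Among bile secretion genes the chloride channel rose and the water channel did not pass the test. Cftr, whose channel drives fluid and bicarbonate into bile, gave 4.48, 3.60, 3.62, 2.08, 3.24 and 1.67 on CA arrays 1 to 6 and 0.88, 0.77, 0.37, 0.39, 0.16 and 1.29 on the UDCA arrays (probe on mm7 chromosome 6, 18262943 to 18263002). The diets did not overlap, and all 12 values were above 0. Wild-type Cftr was not well above background on any array. With CA the mean levels gave a bound of 7.68-fold (fitted ratio 3.11, 95% interval 2.61 to 3.61, limma adjusted p = 3.43e-08). With UDCA the mean levels gave a bound of 1.47-fold, but the fitted ratio of 0.64 ± 0.23 was not called (limma adjusted p = 0.0593). Without CA array 1, CA array 6 or UDCA array 3 that ratio was called (limma adjusted p of 0.0350 to 0.0400). It was called with Feature Extraction's processed signals (2.25, adjusted p = 0.000729), with median centring (0.87, 0.0218), and with the slide as a fixed (0.99, 0.0142) or random block (0.76, 0.0496). The difference of 2.47 ± 0.33 (limma adjusted p = 0.000146) is a fitted value, its size not being measured with wild type at background. Aqp1 was well above background in every sample, with lowest, median and highest ratios of -0.37, -0.08 and 0.33 with CA and -0.23, 0.17 and 0.58 with UDCA, and 95% intervals of -0.32 to 0.19 and -0.09 to 0.43. Aqp1 is also expressed in endothelium, whose marker list had medians of -0.02 with CA and 0.09 with UDCA. The secretin receptor gene Sctr was well above background in knockout liver on 3 of 6 CA arrays, on 0 of 6 UDCA arrays and in wild type on none.

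Of 8 other ductal transport and secretion genes tested, 6 rose with CA, 3 with UDCA and 4 were higher in the difference, with 0 lower in each. Itpr3, the calcium release channel of the apical duct cell, rose with CA (2.90) and with UDCA (1.42) and differed by 1.48. The carbonic anhydrase gene Car2 was at 1.18 with CA and 0.77 with UDCA, and the glucose carrier gene Slc5a1 at 1.16 with CA and 0.47 with UDCA, the second UDCA value not being called. The chloride importer gene Slc12a2 differed by 0.52.

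Genes named for cystic disease of liver and kidney split into 3 that rose and 1 that did not pass the test. Pkhd1, which encodes fibrocystin, a ciliary membrane protein of duct cells, gave 3.92, 3.10, 4.15, 3.04, 3.55 and 3.12 on CA arrays 1 to 6, with UDCA arrays 1 to 6 at 1.40, 1.08, 1.60, 1.0, 0.70 and 1.15 (probe on mm7 chromosome 1, 20247450 to 20247509). The lowest CA value was 3.04 and the highest UDCA value 1.60, a wide gap. Pkhd1 rose 11.2-fold with CA (3.48 ± 0.13, adjusted p = 2.29e-10) and 2.22-fold with UDCA (1.15 ± 0.13, adjusted p = 1.23e-05), and differed by 2.33 ± 0.19 (limma adjusted p = 6.44e-06). Its other probes, dimmer, were called with CA at 1.60 and 0.77 and not with UDCA (adjusted p = 0.669 and 0.988), and both were called in the difference.

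Bicc1 encodes an RNA-binding protein whose loss gives cystic kidneys in mice. On CA arrays 1 to 6 it was at 4.34, 4.41, 4.22, 1.72, 3.39 and 2.78, and on UDCA arrays 1 to 6 at 2.95, 3.08, 3.83, 2.87, 2.68 and 3.67. The UDCA values lay inside the CA range, whose lower part was the 3 Cy3 arrays, on which the knockout spot was saturated. It rose 11.1-fold with CA (3.48 ± 0.23, adjusted p = 8.61e-09) and 9.07-fold with UDCA (3.18 ± 0.23, adjusted p = 1.53e-07), and the limma difference of 0.30 had a 95% interval of -0.39 to 0.98. Of its other probes, one gave 4.05 with CA and 3.20 with UDCA, a difference not called, and the dimmest, unsaturated, gave 2.65 and 1.20, a called difference of 1.44 (limma adjusted p = 0.00704). Refitted on the ratios of the authors' deposited table, the difference of the first probe was 1.30 and called (limma adjusted p = 0.000500).

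Pkd2, the polycystin calcium channel, gave 3.53, 2.98, 3.68, 2.09, 3.08 and 2.23 with CA and 1.19, 1.13, 1.92, 0.81, 0.41 and 1.82 with UDCA. All values were above 0, and the diets were separate. It rose 7.63-fold with CA and 2.32-fold with UDCA and differed by 1.72 ± 0.26 (limma adjusted p = 0.000337), and a dimmer probe was called in the difference at 0.97 but was not called with UDCA (0.37). Pkd1, its larger partner polycystin, read 0.27 ± 0.12 with CA and -0.15 ± 0.12 with UDCA, neither called, with a limma difference of 0.42 (adjusted p = 0.0750, 95% interval 0.06 to 0.77). Without CA array 3, Pkd1 was called with CA (0.38, adjusted p = 0.0120) and in the difference (0.53, adjusted p = 0.0231). Pkd2 and Spp1 lie side by side on chromosome 5 in the annotation. Of 13 other cystic liver and primary cilium genes, 6 rose and 1 fell with CA, 2 rose and 2 fell with UDCA, and 5 were higher and 0 lower in the difference. The kinesin gene Kif3a rose with both diets (1.15 with CA, 0.70 with UDCA), while Bbs4, which rose with CA (0.73), differed by 0.84 and Arl13b, a small GTPase of the cilium, by 0.94.

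**Figure D3:**
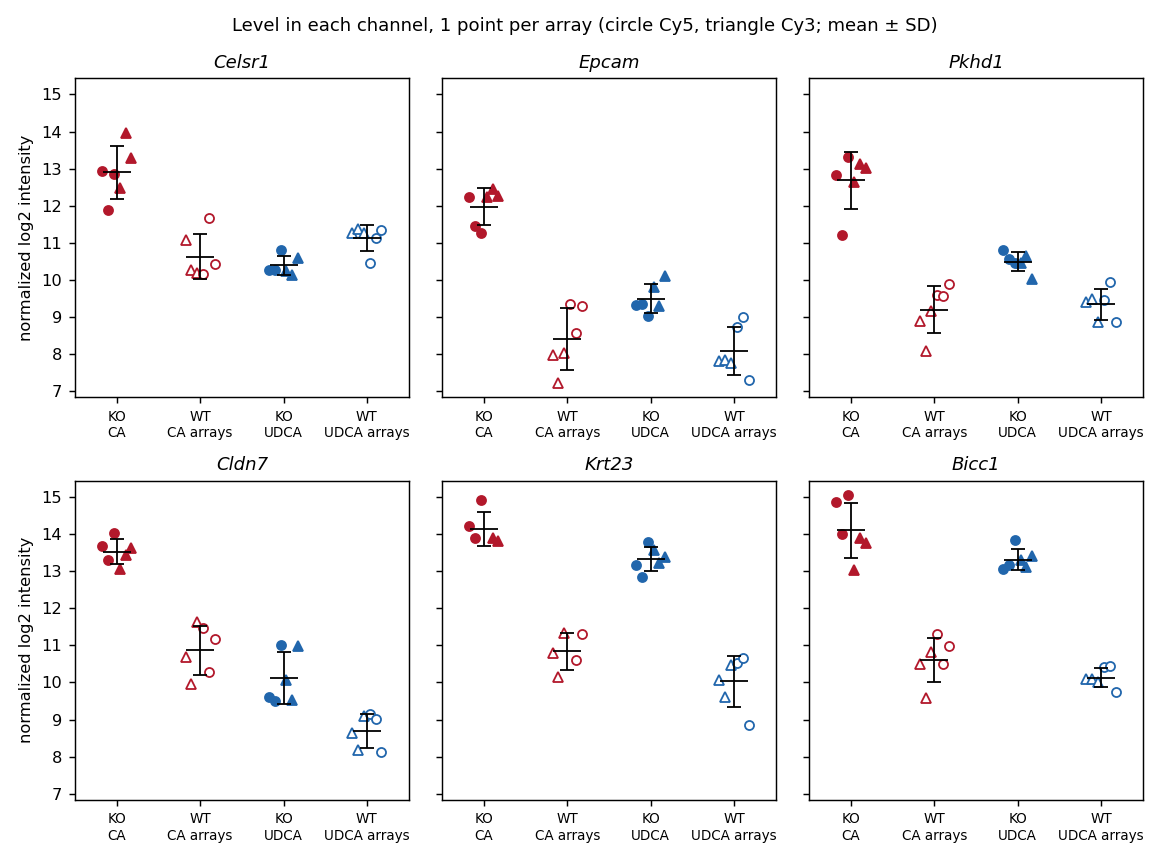
Normalized log2 intensity in the knockout and the wild-type channel of each array for Celsr1, Epcam, Pkhd1, Cldn7, Krt23 and Bicc1, 1 point per array, with mean ± SD (n = 5 or 6 arrays). CA-fed knockout liver lies above the wild-type channel for every gene shown, UDCA-fed knockout liver lies below it for Celsr1, and the wild-type points of Cldn7 are higher on CA arrays than on UDCA arrays.

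The membrane protease St14, known as matriptase, and its inhibitors Spint1 and Spint2 rose together with CA, and the brightest probes of all 3 were higher in the difference. St14 had lowest, median and highest ratios of 1.65, 2.25 and 2.91 with CA and -0.11, 0.50 and 2.23 with UDCA. Of the UDCA arrays only array 6 reached the CA range. The estimates were 2.29 ± 0.23 with CA (adjusted p = 6.73e-07) and 0.72 ± 0.23 with UDCA (adjusted p = 0.0321), with a difference of 1.57 ± 0.32 (limma adjusted p = 0.00275). With Feature Extraction's processed signals the difference was 0.91 and not called (limma adjusted p = 0.138). Without UDCA array 6 the UDCA value was 0.36 and no longer called (adjusted p = 0.0596), nor was it called without UDCA array 1 (0.0546) or 3 (0.0829). A second, dimmer St14 probe rose with CA (0.75, adjusted p = 0.0139), but neither its UDCA value of 0.14 (0.731) nor its difference of 0.61 (0.198) was called. Spint1 was between 1.09 and 2.51 with CA (1.71 ± 0.18) and between -0.13 and 1.33 with UDCA (0.35 ± 0.18, not called), and its fitted difference was 1.36 ± 0.26 (limma adjusted p = 0.00152). On UDCA arrays Spint1 was well above background in knockout on 3 and in wild type on none. The mean levels there gave a bound of 1.25-fold, but the fitted ratio was not called (limma adjusted p = 0.191). That bound alone shows no rise. The UDCA ratio was called with Feature Extraction's processed signals (1.21, adjusted p = 0.00713) and with the slide as a block (0.58, 0.0229). A second, dimmer Spint1 probe, at background in both channels with UDCA, read 0.08 there (limma adjusted p = 0.773). With CA it read 1.16, and its fitted difference of 1.08 was called. Spint2, above background in all samples, changed less, by 0.68 ± 0.10 with CA and 0.11 ± 0.10 with UDCA, a difference of 0.56 ± 0.15 (limma adjusted p = 0.0104). That call was lost with Feature Extraction's processed signals (adjusted p = 0.0523), with median centring (0.702) and with the slide as a block (0.323). Of 5 other membrane serine protease genes, Tmprss4 (1.0) and Tmprss2 (0.57) rose and the growth factor activator gene Hgfac fell by 1.27 with CA. With UDCA, Tmprss2 rose (1.16) and Hgfac fell by 0.56, and Tmprss4 differed by 0.93.

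The secreted genes Cx3cl1, Spp1 and Lgals3 rose with both diets. All 3 were called higher in the difference, though none of them under every setting. Cx3cl1, the membrane-bound chemokine fractalkine, gave 4.70, 4.63, 4.12, 3.07, 4.76 and 3.52 on CA arrays 1 to 6 and 2.40, 2.27, 2.84, 1.67, 1.63 and 3.84 on the UDCA arrays (probe on mm7 chromosome 8, 93371329 to 93371388). Again UDCA array 6 alone overlapped the CA range. It rose 17.6-fold with CA (4.14 ± 0.26, adjusted p = 5.55e-09) and 5.44-fold with UDCA (2.44 ± 0.26, adjusted p = 5.70e-06), and differed by 1.69 ± 0.36 (limma adjusted p = 0.00341). With Feature Extraction's processed signals the difference was 0.86 and not called (limma adjusted p = 0.0564).

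Spp1, the phosphoprotein osteopontin, was measured near the top of the scanner's range. Its ratios were 4.16, 4.02, 4.70, 1.98 and 1.67 on CA arrays 1, 2, 3, 5 and 6 and 1.64, 1.90, 2.64, 1.89, 1.46 and 2.48 on UDCA arrays 1 to 6. The CA arrays fell into 3 high ones with knockout in Cy5 and 2 low ones in Cy3, and the knockout spot was saturated on 5 CA and 3 UDCA arrays. Spp1 rose with CA (3.19 ± 0.29) and UDCA (2.00 ± 0.26), and its difference of 1.19 ± 0.39 (limma adjusted p = 0.0351) was -0.12 on the Cy3 arrays alone. The call was lost on leaving out any 1 of 7 arrays (CA 1 to 3, UDCA 1 to 3 and UDCA 5; adjusted p of 0.0563 to 0.0956), and the value was 0.33 with the slide as a block (adjusted p = 0.624) and 0.66 with flagged spots kept (0.395). Lgals3, a galactose-binding lectin of epithelium and macrophages, had tight ratios with lowest, median and highest values of 2.14, 2.38 and 2.78 with CA and 1.45, 1.74 and 2.47 with UDCA, and a difference of 0.52 ± 0.16 (limma adjusted p = 0.0253) that was lost without CA array 4, UDCA array 3 or UDCA array 5 (0.0525 to 0.0655), with Feature Extraction's processed signals (0.39, 0.177) and with the slide as a block (0.37, 0.461). Its 5.29-fold rise with CA stood beside a rise of 5 macrophage markers of 6.

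Of 9 partners of these secreted and immune genes, which include receptors of osteopontin and fractalkine, 8 rose and 1 fell with CA, 4 rose and 1 fell with UDCA, and 6 were higher and 0 lower in the difference. The fractalkine receptor gene Cx3cr1 was at 2.03 with CA and 0.79 with UDCA. Cd44, a receptor of osteopontin and hyaluronan, was at 2.18 with CA and 0.98 with UDCA, the integrin gene Itgav differed by 1.27, and Icosl, a costimulatory ligand, was at 2.40 with CA and 0.58 with UDCA. The T cell inhibitory ligand gene Vtcn1, a member, was well above background in knockout liver on 2 of 6 CA arrays and 0 of 6 UDCA arrays.

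Set side by side, 8 members had ratios that did not overlap between the diets, and in all 8 CA was above UDCA: Celsr1, Cftr, Cldn4, Cldn6, Epcam, Pkd2, Pkhd1 and Sorbs2. Among all tested genes 7.11% had such a gap with CA above and 3.13% with UDCA above. Cftr, Cldn4 and Cldn6 had passed the filter only through the knockout channel, so their gaps are no support on their own. The same holds for Cftr, Cldn6 and Spint1 in the count of knockout levels that follows. In the knockout channel alone, 14 of 29 members had levels on CA arrays that lay wholly above those on UDCA arrays, and 0 lay wholly below, where 9.97% and 7.61% of all tested genes did. In the wild-type channel 4 members did so too, Cd24a, Cldn6, Cldn7 and Spint1, and 0 did the reverse, where the shares of all tested genes were 0.67% and 0.846%. Krt23, whose ratios overlapped, was among the 14, its knockout levels being 13.80 to 14.91 on CA and 12.85 to 13.79 on UDCA arrays. Its wild-type levels overlapped, at 10.14 to 11.34 on CA and 8.85 to 10.65 on UDCA arrays. For Cldn7 the mean was 13.52 ± 0.34 in CA-fed knockout liver and 10.86 ± 0.66 in wild type on those arrays, and 10.12 ± 0.71 in UDCA-fed knockout liver and 8.70 ± 0.46 in wild type on theirs (normalized log2 intensity, SD, n = 6 arrays each). The ratios thus set each diet against its own wild-type channel, and for Cd24a, Cldn6, Cldn7 and Spint1 the wild-type channels were not alike. Levels across arrays rest on quantile normalization of the arrays' average intensity, and slides differed between the diets.

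The difference between the diets was also read within slides and within dyes. Slides 3 and 4 each held both diets. On slide 3 the single CA array had the knockout in Cy3 and both UDCA arrays had it in Cy5, so diet and dye cannot be told apart there, and 24 of the 29 tested members were above 0 (median 1.05). On slide 4, with 1 CA and 3 UDCA arrays, 23 were above 0 (median 0.68). Between the CA array and the 2 UDCA arrays of slide 4 that shared its Cy3 orientation, a comparison added after seeing the data, 26 were above 0 (median 0.94), Krt23 (-0.29), Mal (-0.07) and Spp1 (-0.01) being the others. These arrays are also in the fit, so the signs are no independent support. With the slide as a block 14 members were higher in the difference. Of the 29 members 26 were above 0 between arrays with the knockout in Cy5 (median 1.41), and 24 between those in Cy3 (median 0.69). Of all 29 members 23 had a higher mean on Cy5 than on Cy3 arrays with CA, and 18 with UDCA. The dye term was called for 4 members (Krt8, Krt18, Cldn6 and Spint2). The share of all tested genes was not counted for any of these slide and dye counts, so they have no background beside them.

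Markers of some other cells rose as well, and not all of these followed the order of the diets. With CA the biliary median lay between 1.66 and 2.78 on single arrays, and with UDCA between 0.36 and 1.78. The stellate cell and portal fibroblast markers rose in 9 of 9 cases with CA and 8 of 9 with UDCA, with medians of 0.89 and 0.97, and 1 of 9 was higher in the difference. Their summed intensity ranged from 43694 to 137167 in CA-fed knockout liver and 12359 to 31417 in wild type, and from 45164 to 102672 in UDCA-fed knockout liver and 14019 to 21442 in wild type. Col1a1 (3.08 with CA, 3.54 with UDCA) and Pdgfrb (3.00 with CA, 2.15 with UDCA) had the highest values with CA.

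Among macrophage markers 5 of 6 rose and 1 fell with CA, 4 rose with UDCA, and in the difference 4 were higher and 1 lower. Ccr2 (4.15 with CA, 1.46 with UDCA) and Trem2 (3.71 with CA, 2.96 with UDCA) rose and Clec4f fell by 3.37 with CA, and the summed intensity was 25363 to 47608 in CA-fed knockout liver against 9048 to 17676 in wild type, and 11725 to 18312 in UDCA-fed knockout liver against 8126 to 11320 in wild type. All 5 cell division genes rose with CA and 4 with UDCA, with medians of 2.40 with CA and 1.93 with UDCA, Mcm6 (3.22 with CA, 1.93 with UDCA) and Mki67 (3.05 with CA, 2.20 with UDCA) being the highest with CA. Their sums were 8087 to 24122 in CA-fed knockout liver against 1083 to 3523 in wild type, and 3720 to 13410 in UDCA-fed knockout liver against 1867 to 3367 in wild type. Mesothelial markers rose in 3 of 5 cases with CA (Upk1b 1.65, Wt1 0.89) and 0 of 5 with UDCA by limma, 2 having an unadjusted p under 0.05. Their sums were 1440 to 4180 in CA-fed knockout liver against 1093 to 2428 in wild type, and 1852 to 4688 in UDCA-fed knockout liver against 1852 to 2994 in wild type. The part of any of these cells in the biliary values was not tested.

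The remaining lists gave mixed calls. Of 8 hepatocyte markers 2 fell with each diet and 0 rose, with medians of -0.36 with CA and -0.30 with UDCA, and at an unadjusted p under 0.05 0 rose in either. Endothelial markers gave 1 higher and 1 lower of 6 with CA and 0 called by limma with UDCA (1 at an unadjusted p under 0.05). Of 3 tested lymphocyte markers 1 rose and 1 fell with CA. The leukocyte gene Ptprc was at 2.99 with CA and 1.12 with UDCA and differed by 1.86, all called by limma. The B cell genes Cd79a and Ms4a1 were not tested. Both intestinal epithelial genes that were tested, Fabp2 and Lgals4, fell with CA, and Cdx1, Cdx2, Lct and Sis were not tested. All 4 pancreatic acinar genes tested fell with CA (median -1.46) and 0 of 4 were called by limma with UDCA (median -0.02, 1 higher at an unadjusted p under 0.05).

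**Figure D4:**
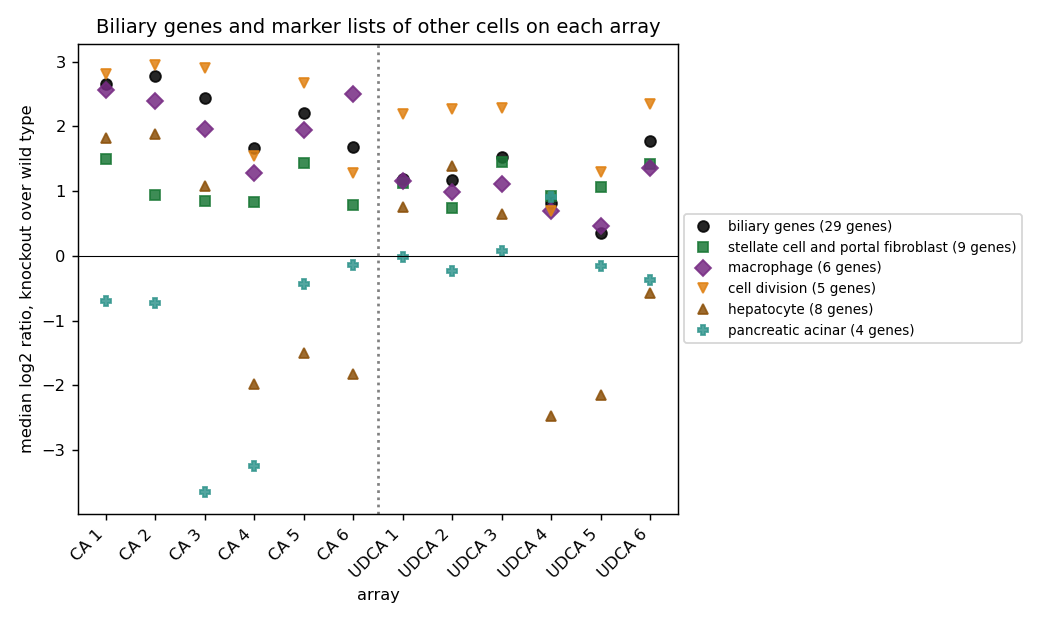
Median log2 ratio of knockout over wild type on each of the 12 arrays for the biliary genes and for marker lists of other cells. The biliary median lies between 1.66 and 2.78 on CA arrays and between 0.36 and 1.78 on UDCA arrays, the hepatocyte median changes sign with the dye, and pancreatic genes drop to -3.65 and -3.26 on CA arrays 3 and 4.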

How the data were processed

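Liver RNA was labelled in Cy3 and Cy5 and hybridized to Agilent whole mouse genome arrays. Per the file headers and labels, the authors read the images with Feature Extraction 9.5.3, which wrote each spot's mean intensity and local background in both colours, not normalized, and flags for background, saturation and outliers. Per the file headers, that program also wrote processed intensity signals and a log10 ratio of the red to the green one. The authors also deposited a table of log2 ratios, for which the sources used here give no normalization. Its CA columns ran opposite to knockout over wild type (r from -0.98 to -0.86) and were turned for use as an alternative.

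Intensities were background-corrected (normexp, offset 50) and normalized by loess within arrays with limma 3.58.1 under R 4.3.3. Control spots had weight 0, flagged outliers (0.94% of values) were missing, and spots of a probe were averaged. Probes were named by RefSeq accession for 15546 and by the file for 6147 of 21693 tested probes. A gene stands for its brightest tested probe, and 9 members had 11 further tested probes. Probe positions are the files' mm7 positions, with no annotation of that build used here. Ratios were fitted on both diets and the dye in one limma model over 12 arrays, tested on simulated data. Channel levels used Aquantile. Nothing in the labels gives which arrays form the dye swap of a diet, so each array counted as a replicate and p-values are too small by an amount that was not tested. Same-numbered arrays of the diets did not deviate together (residual correlation -0.57 to 0.13). Figures used matplotlib 3.10.9.

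The 33 members, the role groups and the lists of related genes and cell markers were chosen with earlier results of these data known. All members are named, as are up to 3 called genes with the largest change in CA-fed liver and up to 2 in the difference from each related list, and Abcb4. From each cell marker list up to 2 genes with the largest change are named, and Clec4f, Wt1, Fabp2 and Lgals4 beside them after their values were seen. Some genes of these lists are not reported here by name. Alternatives were other normalizations, filters, dye and slide terms, probe averaging, the authors' table and leaving out each array.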

Additional observations from a re-analysis of the deposited data

Results flagged for a closer look

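A total of 18 genes differed between the diets in the limma test of the difference itself, with adjusted p under 0.05 (log2 ratio with CA minus log2 ratio with UDCA, each against its own wild-type channel). Celsr1 stood at 3.02, its sign being positive on all CA arrays and negative on all UDCA arrays. The other junction and polarity genes were at 1.70 (Cldn4), 1.47 (Cldn6), 1.24 (Cldn7), 0.76 (Sorbs2) and 0.46 (Cdh1). Cftr stood at 2.47, the cystic disease genes Pkhd1 and Pkd2 at 2.33 and 1.72, and the surface genes Epcam and Cd24a at 2.16 and 1.37. For the protease group the values were 1.57 (St14), 1.36 (Spint1) and 0.56 (Spint2), for the secreted group 1.69 (Cx3cl1), 1.19 (Spp1) and 0.52 (Lgals3), and for Krt19 1.22. Those of Cftr, Cldn4 and Spint1 are fitted values and not measured sizes: Cftr in wild type was not well above background on any array, Cldn4 in neither channel of any UDCA array, and Spint1 in wild type on no UDCA array. The size for Cldn6 is uncertain too, its wild-type spot being well above background on 4 CA arrays and 1 UDCA array.

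Of 58 groups of arrays examined, 4 held an array whose gap to the nearest other exceeded Dixon's critical value, and chance alone gives about 1 in 20 groups. UDCA array 6 did so for Krt7 (2.36), Spint1 (1.33) and Tspan8 (3.87), and CA array 3 for Sorbs2 (2.85). UDCA array 6 also had the highest biliary median of the UDCA arrays, 1.78, and was alone on its slide. Whether its liver, its slide or the hybridization sets it apart cannot be told apart here.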

How the results depend on the processing

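None of the members' values reversed under any alternative. With Feature Extraction's processed signals in place of loess, 11 members were higher in the difference CA minus UDCA. With arrays centred on their median, 10 were higher in the difference and 0 lower with UDCA, the median of all genes being 0.30 with CA and 0.32 with UDCA. Restricting the count to the 18 members well above background in both channels of both diets, a choice made after seeing the data, left counts of higher members of 15 (CA), 12 (UDCA) and 10 (difference), as it holds fewer genes. No share of all genes was counted under that restriction or under any other alternative. Whether calls over all genes moved alike is thus not known. The cause of the first 2 shifts was not tested. Leaving out 1 array at a time gave 24 to 27 members higher and 0 lower with CA (median 2.14 to 2.39), 17 to 20 higher and 1 lower with UDCA (median 0.95 to 1.28), and 14 to 21 higher and 0 lower in the difference (median 0.73 to 1.40). The lowest count in the difference came without UDCA array 5 and the highest without UDCA array 6. With the slide as a random block the counts of higher members were 26, 20 and 18. Same-numbered arrays are not paired by the labels and did not deviate together. With the replicate number as a block 16 members were higher in the difference, Cdh1 (adjusted p = 0.0565) and Spp1 (0.0524) being no longer called. Over all alternatives 648 of 667 single-gene values for CA kept direction and call, as did 635 of 667 for UDCA and 630 of 696 for the difference. The calls in the difference that held under every alternative run were those of Celsr1, Cftr, Cldn6, Epcam, Pkd2, Pkhd1 and Spint1. The fall of Celsr1 with UDCA was lost only under median centring. Saturated knockout spots (on 3 or more arrays for 7 members with CA and 3 with UDCA) and wild-type spots at background limit the size of single ratios, and the indirect comparison of the diets over their wild-type channels limits the differences.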

Other observations

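Dmbt1, a secreted scavenger receptor of ductular cells, did not pass the filter for the test and varied widely. It was well above background in knockout on 2 CA and 4 UDCA arrays and in wild type on 3 and 2. Its ratio was -0.60, 3.71, -3.39, -3.68, -0.06 and -0.29 on CA arrays 1 to 6 and 1.03, 0.10, 1.90, -0.08, 0.08 and 2.93 on UDCA arrays 1 to 6. The 2 lowest values fell on CA arrays 3 and 4, the arrays on which the pancreatic acinar genes were also lowest (-3.65 and -3.26), and the part of pancreatic RNA in them was not tested.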
